A study of Homo sapiens with 6 samples.

Results

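Expression of 10 genes of the G1/S switch was examined in HEK293FT cells: the D-type cyclins CCND1, CCND2 and CCND3, the E-type cyclins CCNE1 and CCNE2, the kinases CDK2, CDK4 and CDK6, the transcription factor E2F1 and the retinoblastoma gene RB1. They were taken by gene name from a deposited table of 58884 genes, and each name matched 1 row. HEK293FT is a fast-growing human embryonic kidney line that carries the adenoviral E1A and E1B genes and the SV40 large T antigen. The 3 ISLR-labelled libraries came from cells given supernatant with secreted ISLR, a leucine-rich repeat protein of the immunoglobulin superfamily made by stromal cells, for 72 h. The 3 NC-labelled libraries came from cells given supernatant of an empty vector control for the same time, in the same medium with serum. Nothing in the labels tells whether replicate libraries were separate cultures, so p-values cover the spread among these libraries alone, and that spread may be technical.

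In G1, mitogens raise D-type cyclins, which pair with CDK4 or CDK6 and begin to phosphorylate the RB protein. RB otherwise holds the activator E2F proteins silent at promoters. Freed E2F switches on CCNE1, CCNE2, its own gene and the DNA replication genes, and cyclin E with CDK2 completes RB phosphorylation in a positive feedback that commits the cell to S phase. Large T antigen and E1A are both known to bind RB-family proteins; neither was measured here.

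The transcript of ISLR itself stood at 0, 0.02 and 0 TPM in the ISLR-labelled libraries and at 510.32, 555.37 and 535.06 TPM in the NC-labelled ones. The transcript was thus abundant only in the libraries titled as the empty vector control. Whether the titles were exchanged cannot be told from these files, so the groups are called by their labels, and an exchange would reverse each direction below. The described treatment is with supernatant, and why either group held the ISLR transcript at such a level was not tested. TPM is a share of all transcripts, corrected for length, so levels can be compared between genes, but the read depth behind a value is unknown. Library values (log2 of TPM + 1) correlated at 0.980 to 0.984 within groups and at 0.963 to 0.972 between them, and no pair of libraries was identical. Of 8 HEK293 markers, 7 stood at 1 TPM or more in all libraries, and the sum of the 8 was 1545 to 1603 TPM in the ISLR-labelled libraries and 1396 to 1422 TPM in the NC-labelled ones. Most of that sum was VIM, at 1218.81 to 1259.53 TPM and 1116.16 to 1137.29 TPM. PAX2 was the exception, at 0.81 to 0.95 TPM in the ISLR-labelled libraries and 1.17 to 1.5 TPM in the NC-labelled ones. Of 8 stromal, blood and endothelial markers, 6 were below 1 TPM in every library, and the sum of the 8 was 13.3 to 14.2 TPM in the ISLR-labelled libraries and 11.2 to 16.8 TPM in the NC-labelled ones. Within it, the defining blood and endothelial genes PTPRC and PECAM1 reached at most 0.02 TPM in the ISLR-labelled libraries and 0.14 TPM in the NC-labelled ones. Most of the sum was the stromal collagen COL1A1, at 10.92 to 11.75 TPM and 8.95 to 14.28 TPM. COL3A1 also stood above 1 TPM in every library.

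The differences went both ways within the switch. E2F1 was higher and CCNE1 lower in the ISLR-labelled libraries, and both calls held on every scale tried. Each gene was tested with limma on log2(TPM + 1) in a fit of 13869 genes that reached 1 TPM in 3 or more libraries, and a call means an adjusted p (Benjamini-Hochberg, over all of them) under 0.05. All 10 G1/S genes passed the filter. Over all tested genes the log2 fold had a median of 0.22 on the deposited scale, so a relative log2 fold with that median taken off is also given, and each gene was tested again after median-of-ratios scaling. An adjusted p beside a relative log2 fold tests the deposited log2 fold, not the relative one. On the deposited scale 6 of the 10 genes rose (CCND1, CCND2, CCNE2, CDK2, CDK4 and E2F1), where 38.5% of all tested genes rose, and 1 fell (CCNE1), where 7.38% did. The groups did not overlap for the same 7 genes, against 46.3% of all tested genes that lay wholly higher and 10.5% wholly lower in the ISLR-labelled libraries. After scaling 2 rose (CCND1 and E2F1), where 18.2% of all tested genes did, and 3 fell (CCND3, CCNE1 and RB1), where 20.4% did. After quantile normalization 2 rose (CDK4 and E2F1), where 17.7% of all tested genes did, and 4 fell (CCND3, CCNE1, CDK6 and RB1), where 15.2% did. The same 4 fell when the trend of the fold with gene length or with mean expression was also removed from the scaled values, where 20.3% and 15.8% of all tested genes fell. E2F1 rose in both of those fits, alone with the length trend removed (16.4% of all tested genes rose) and with CDK4 with the expression trend removed (17.2%). The median log2 fold of the 10 genes was 0.20 as deposited, beside the 0.22 of all tested genes. In bulk RNA, fewer cells in a phase of the cycle and less RNA per cell cannot be told apart.

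**Figure D1:**
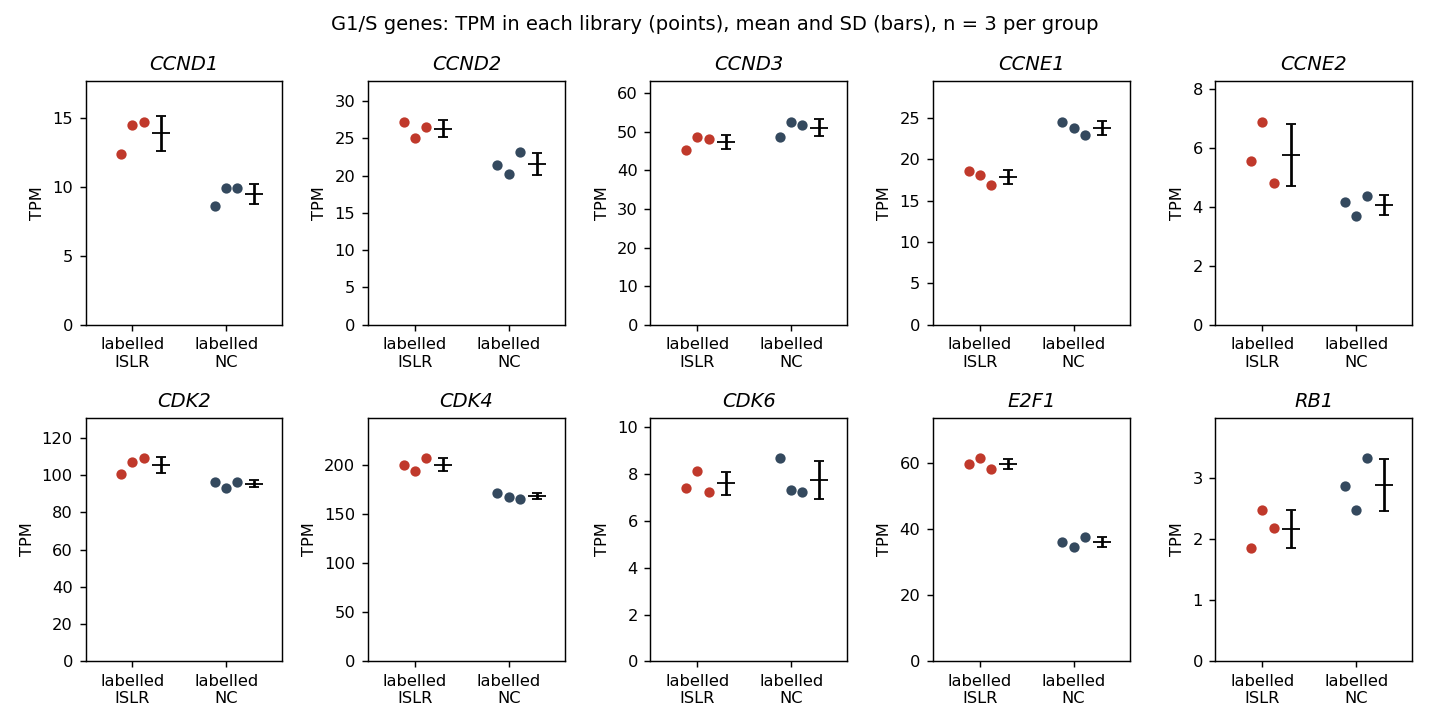
TPM of each of the 10 genes (vertical axes, starting at 0, with their own range) in the 3 ISLR-labelled libraries (red, left) and the 3 labelled NC (dark, right), with the mean and SD as a bar. E2F1 lies at 58.2 to 61.41 TPM against 34.73 to 37.55 TPM, CCNE1 lies lower in all ISLR-labelled libraries, and CCND3, CDK6 and RB1 overlap between the groups.

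The D-type cyclins are the mitogen-sensing arm of the switch. CCND1 (ENSG00000110092.3, chromosome 11, 69641087 to 69654474, plus strand) stood at 12.44, 14.53 and 14.77 TPM in the ISLR-labelled libraries and at 8.67, 9.92 and 9.94 TPM in the NC-labelled ones. The lowest library labelled ISLR lay above the highest labelled NC. Its means were 13.9 ± 1.28 TPM and 9.51 ± 0.728 TPM (SD, n = 3 each), a ratio of 1.46, with a log2 fold of 0.50 (95% interval 0.28 to 0.73, relative log2 fold 0.29, limma adjusted p = 0.00498). The call was kept narrowly after scaling (log2 fold 0.27, limma adjusted p = 0.0478) and was lost after quantile normalization (limma adjusted p = 0.0929) and with the length or expression trend removed (0.115 and 0.101).

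CCND2 (ENSG00000118971.7, chromosome 12, 4273772 to 4305350, plus strand), a D-type cyclin with the same kinase partners, stood at 27.22, 24.98 and 26.54 TPM in the ISLR-labelled libraries and at 21.45, 20.14 and 23.14 TPM in the NC-labelled ones. All ISLR-labelled libraries were higher, but by little more than the median shift of all tested genes. The log2 fold was 0.27 (95% interval 0.11 to 0.44, limma adjusted p = 0.0174), the relative log2 fold 0.06, and after scaling the log2 fold was 0.03 (limma adjusted p = 0.731). The call was also lost without labelled ISLR 1 or 3 or labelled NC 2 (limma adjusted p = 0.0557, 0.0545 and 0.0505). An antisense gene, CCND2-AS1, overlaps its 5' part, and no source used here tells if reads were counted by strand. CCND2-AS1 was listed at 0.17 to 0.68 TPM.

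CCND3 (ENSG00000112576.12, chromosome 6, 41934933 to 42050357, minus strand), the most abundant D-type cyclin here, stood at 45.39, 48.62 and 48.18 TPM in the ISLR-labelled libraries and at 48.52, 52.61 and 51.85 TPM in the NC-labelled ones. The groups overlapped. Its log2 fold of -0.10 (95% interval -0.23 to 0.02) did not pass as deposited (limma adjusted p = 0.147). After scaling it was lower in the ISLR-labelled libraries, with a log2 fold of -0.35 (limma adjusted p = 0.00192), and its relative log2 fold was -0.32. The calls for this gene therefore depend on the scale.

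The balance among the D-type cyclins does not depend on scaling between libraries, because it is read within each one. A trend of the fold with gene length or expression could still affect it. CCND3 made up 54.1 ± 0.934% of the summed TPM of the 3 genes in the ISLR-labelled libraries and 62.1 ± 1.35% in the NC-labelled ones (SD, n = 3 each). CCND1 made up 15.9 ± 1.08% and 11.6 ± 0.50% of that sum, and CCND2 made up 30.0 ± 1.85% and 26.3 ± 1.67%, in the ISLR-labelled libraries and the NC-labelled ones. The sum itself was 87.6 ± 2.27 TPM in the ISLR-labelled libraries and 82.1 ± 3.19 TPM in the NC-labelled ones. CCND3 was the largest part of it in all 6 libraries.

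CDK4 and CDK6 encode the kinases that D-type cyclins activate. CDK4 (ENSG00000135446.16, chromosome 12, 57747727 to 57756013, minus strand) was the most abundant of the 10 transcripts. It stood at 200.14, 194.32 and 206.85 TPM in the ISLR-labelled libraries and at 171.92, 167.67 and 165.53 TPM in the NC-labelled ones. The groups were well apart, with a log2 fold of 0.25 (95% interval 0.17 to 0.33, limma adjusted p = 0.00146). This was the size of the median shift of all tested genes (relative log2 fold 0.03), and after scaling the log2 fold was 0.0017 (limma adjusted p = 0.975). After quantile normalization the log2 fold was 0.23 and the call was kept (limma adjusted p = 0.00397), and so it was with the expression trend removed (0.23, limma adjusted p = 0.00371). With the length trend removed it was lost (log2 fold 0.080, limma adjusted p = 0.115), so the CDK4 call depends on the scale.

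CDK6 (ENSG00000105810.9, chromosome 7, 92604921 to 92836594, minus strand) stood at 7.40, 8.14 and 7.24 TPM in the ISLR-labelled libraries and at 8.66, 7.30 and 7.21 TPM in the NC-labelled ones. The groups overlapped almost fully, with a log2 fold of -0.02 (95% interval -0.25 to 0.21, limma adjusted p = 0.889) and a relative log2 fold of -0.24. Scaling left it uncalled (log2 fold -0.24, limma adjusted p = 0.0954), whereas quantile normalization called it lower (log2 fold -0.31, limma adjusted p = 0.0479). CDK4 accounted for 96.3 ± 0.329% of the summed TPM of both kinases in the ISLR-labelled libraries and for 95.6 ± 0.359% in the NC-labelled ones (SD, n = 3 each). CDK4 RNA was thus far more abundant than CDK6 RNA in all 6 libraries.

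The E-type cyclins, which activate CDK2 at the end of G1, differed in opposite directions. CCNE1 (ENSG00000105173.13, chromosome 19, 29811898 to 29824308, plus strand) stood at 18.56, 18.09 and 16.87 TPM in the ISLR-labelled libraries and at 24.54, 23.80 and 22.95 TPM in the NC-labelled ones. The highest library labelled ISLR lay well below the lowest labelled NC. Means were 17.8 ± 0.874 TPM and 23.8 ± 0.796 TPM (SD, n = 3 each), a ratio of 0.751, with a log2 fold of -0.39 (95% interval -0.54 to -0.25, relative log2 fold -0.61, limma adjusted p = 0.00259). After scaling the log2 fold was -0.63 (limma adjusted p = 0.000632). It was called lower under all 17 alternatives run, the authors' deposited table included (adjusted p = 1.14e-16 there, with the direction read from TPM). The authors' own significance mark for CCNE1 read no.

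CCNE2 (ENSG00000175305.17, chromosome 8, 94879770 to 94896678, minus strand), the other E-type cyclin, stood at 5.56, 6.88 and 4.79 TPM in the ISLR-labelled libraries and at 4.15, 3.68 and 4.35 TPM in the NC-labelled ones. Every library labelled ISLR was higher, but their spread was wide. The log2 fold was 0.40 (95% interval 0.08 to 0.73, relative log2 fold 0.19), just past the threshold (limma adjusted p = 0.0450). It did not pass after scaling (limma adjusted p = 0.284), and of the 6 fits that each leave out 1 library only the one without labelled ISLR 3 kept the call (limma adjusted p = 0.0302). Without labelled ISLR 1 or 2 it was 0.0895 and 0.122, and without labelled NC 1, 2 or 3 it was 0.0862, 0.121 and 0.0681.

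CCNE1 supplied 75.8 ± 2.91% of the summed TPM of both E-type cyclins in the ISLR-labelled libraries and 85.4 ± 1.28% in the NC-labelled ones (SD, n = 3 each). The sum was 23.6 ± 1.72 TPM in the ISLR-labelled libraries and 27.8 ± 0.756 TPM in the NC-labelled ones. CCNE1 thus remained the main E-type transcript in all 6 libraries.

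CDK2 (ENSG00000123374.10, chromosome 12, 55966769 to 55972784, plus strand), the kinase of cyclin E and later of cyclin A, stood at 100.42, 106.92 and 108.97 TPM in the ISLR-labelled libraries and at 96.45, 93.30 and 96.44 TPM in the NC-labelled ones. The groups did not overlap, but the log2 fold of 0.14 (95% interval 0.04 to 0.24, limma adjusted p = 0.0300) was below the median shift of all tested genes. Its relative log2 fold was -0.07, and after scaling the direction turned, with a log2 fold of -0.10 (limma adjusted p = 0.0506). With the expression trend also removed, the log2 fold of CDK2 was 0.06 (limma adjusted p = 0.206). The call was lost without labelled ISLR 2 or 3 (limma adjusted p = 0.0826 and 0.0960) and without labelled NC 1, 2 or 3 (0.0565, 0.0865 and 0.0618).

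E2F1 (ENSG00000101412.12, chromosome 20, 33675683 to 33686404, minus strand), the activator E2F that RB restrains, had the largest rise of the 10 genes on both scales. It stood at 59.55, 61.41 and 58.20 TPM in the ISLR-labelled libraries and at 36.15, 34.73 and 37.55 TPM in the NC-labelled ones. The 2 sets lay far apart relative to their spread. Means were 59.7 ± 1.61 TPM and 36.1 ± 1.41 TPM (SD, n = 3 each), a ratio of 1.65, with a log2 fold of 0.71 (95% interval 0.59 to 0.83, relative log2 fold 0.49, limma adjusted p = 0.000139). After scaling the log2 fold was 0.47 (limma adjusted p = 0.000533), and all 17 alternatives kept the call. The authors' adjusted p was among these, although their own significance mark for E2F1 read no. Among the 8 E2F genes, E2F1 made up 39.7 ± 0.742% of the summed TPM in the ISLR-labelled libraries and 34.2 ± 2.08% in the NC-labelled ones.

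The promoters of E2F1 and CCNE1, both textbook E2F-responsive genes, are shown because their transcripts moved in opposite directions. Each sequence gives the 250 bases before the RefSeq start of the gene on GRCh38.p14, 5' to 3' on the strand of the gene, at chr20:33686386-33686635 (minus) for E2F1 and chr19:29811741-29811990 (plus) for CCNE1. Capitals mark matches on either strand to an E2F-type motif spelled as any of the 4 words TTTCCCGC, TTTCGCGC, TTTGCCGC and TTTGGCGC.
E2F1: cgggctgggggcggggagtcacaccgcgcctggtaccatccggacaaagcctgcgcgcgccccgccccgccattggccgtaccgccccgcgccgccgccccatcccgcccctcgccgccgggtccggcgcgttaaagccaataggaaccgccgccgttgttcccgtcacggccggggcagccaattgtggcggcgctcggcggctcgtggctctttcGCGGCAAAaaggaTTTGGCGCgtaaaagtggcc
CCNE1: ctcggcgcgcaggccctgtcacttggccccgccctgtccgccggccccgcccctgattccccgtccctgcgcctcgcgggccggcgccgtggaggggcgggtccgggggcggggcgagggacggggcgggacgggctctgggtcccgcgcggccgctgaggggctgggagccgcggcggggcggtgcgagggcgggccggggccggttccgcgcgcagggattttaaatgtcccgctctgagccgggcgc
The E2F1 window held 2 matches, GCGGCAAA on the opposite strand at bases -33 to -26 and TTTGGCGC at -20 to -13 from the start, which do not overlap each other. The CCNE1 window held none of these words, which says only that these letters are not in it. Of all 35116 windows of this length in the RefSeq table, 2.79% held a match. RefSeq windows were given for 6 of the 10 genes, but not all lie at the gene start. For CCND3, CDK4 and RB1 the RefSeq start lay 1669, 3703 and 172724 bases inside the gene as GENCODE draws it, and these were not used. For the printed E2F1 and CCNE1 windows it lay 19 and 93 bases inside, so the last bases of each are within the gene by GENCODE. A match is a description of the letters, not evidence of binding.

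RB1 (ENSG00000139687.15, chromosome 13, 48303726 to 48599436, plus strand), whose protein is the substrate of the cyclin-dependent kinases and the restraint on E2F, was the least abundant of the 10. It stood at 1.85, 2.47 and 2.18 TPM in the ISLR-labelled libraries and at 2.87, 2.47 and 3.32 TPM in the NC-labelled ones. The highest value labelled ISLR equalled the lowest labelled NC. The log2 fold of -0.29 (95% interval -0.62 to 0.03, relative log2 fold -0.51) did not pass as deposited (limma adjusted p = 0.120), but after scaling it was lower in the ISLR-labelled libraries (log2 fold -0.47, limma adjusted p = 0.0281). Because of the pseudocount of 1, log2 folds of a gene this low understate the change, and the means, 2.17 ± 0.311 TPM and 2.89 ± 0.425 TPM (SD, n = 3 each), gave a ratio of 0.751.

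**Figure D2:**
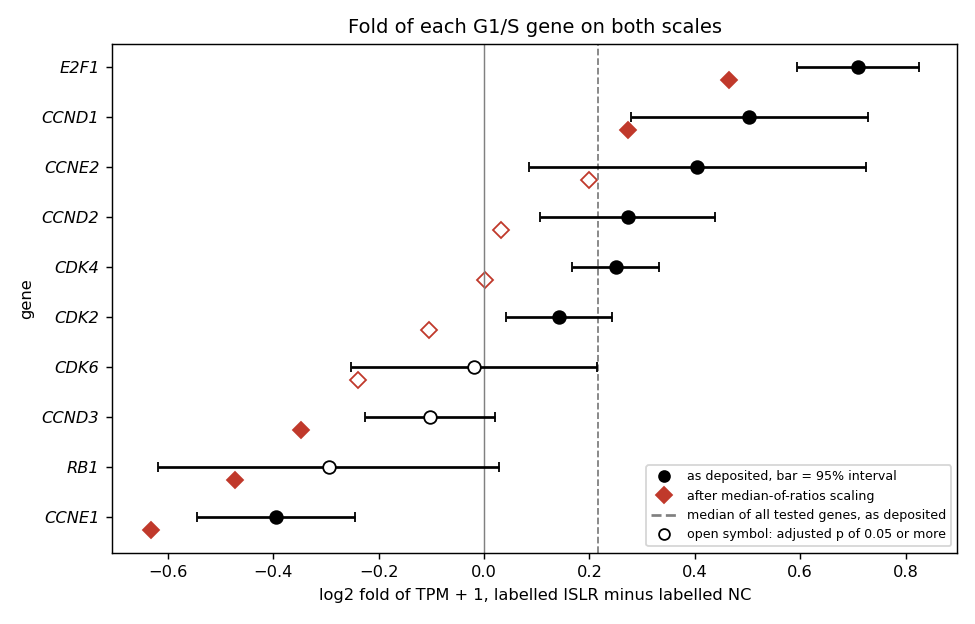
Log2 fold of TPM + 1, labelled ISLR minus labelled NC, for each gene as deposited (black circles, bar for the 95% interval) and after median-of-ratios scaling (red diamonds); filled symbols passed an adjusted p under 0.05. E2F1 and CCND1 are filled at the high end and CCNE1 at the low end on both scales, while CDK4 at 0.25 sits near the dashed median of all genes, 0.22.

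The levels of the 10 genes fell in nearly the same order in both groups. From high to low it was CDK4, CDK2, E2F1, CCND3, CCND2, CCNE1, CCND1, CDK6, CCNE2 and RB1 in the ISLR-labelled libraries, with no overlap in TPM between neighbours. In the NC-labelled libraries, CCND3 stood above E2F1 and CCNE1 next to CCND2, and the last 2 overlapped (22.95 to 24.54 and 20.14 to 23.14 TPM). CDK4 ranked above 95.5% of tested genes in the ISLR-labelled libraries and above 94.7% in the NC-labelled ones, whereas RB1 ranked above 13.3% and 24.1%.

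Ratios between genes within a library, which no scaling between libraries can change, were compared for 6 pairs with exact two-sided permutation tests. Removing the trend of the fold with gene length or expression would change them, and they were not computed after it. With 3 libraries against 3 the smallest p possible is 0.1, so none can pass 0.05. E2F1 over RB1, an activator over its restraint, was 32.2, 24.9 and 26.7 in the ISLR-labelled libraries and 12.6, 14.1 and 11.3 in the NC-labelled ones. The groups were far apart, with a difference of mean log2 ratios of 1.14 (exact permutation p = 0.1, 0.12 adjusted over the 6 pairs). RB1 was at only 1.85 to 3.32 TPM, and its counting error is unknown.

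CCNE1 over CCNE2 was 3.34, 2.63 and 3.52 in the ISLR-labelled libraries and 5.91, 6.47 and 5.28 in the NC-labelled ones, a difference of -0.90 on the log2 scale. CCND1 over CCND3 was 0.274, 0.299 and 0.307 in the ISLR-labelled libraries and 0.179, 0.189 and 0.192 in the NC-labelled ones, a difference of 0.65. In neither case did the groups overlap (exact permutation p = 0.1 for each, 0.12 adjusted). CDK4 over CDK6 (difference 0.27) and CDK2 over CDK4 (-0.11) also did not overlap, at the same p in the exact permutation test. CCND1 over CCND2 overlapped between the groups (difference 0.26, exact permutation p = 0.2). How often ratios between any tested genes lie apart was not computed. Of single tested genes, 46.3% lay wholly higher and 10.5% wholly lower in the ISLR-labelled libraries.

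**Figure D3:**
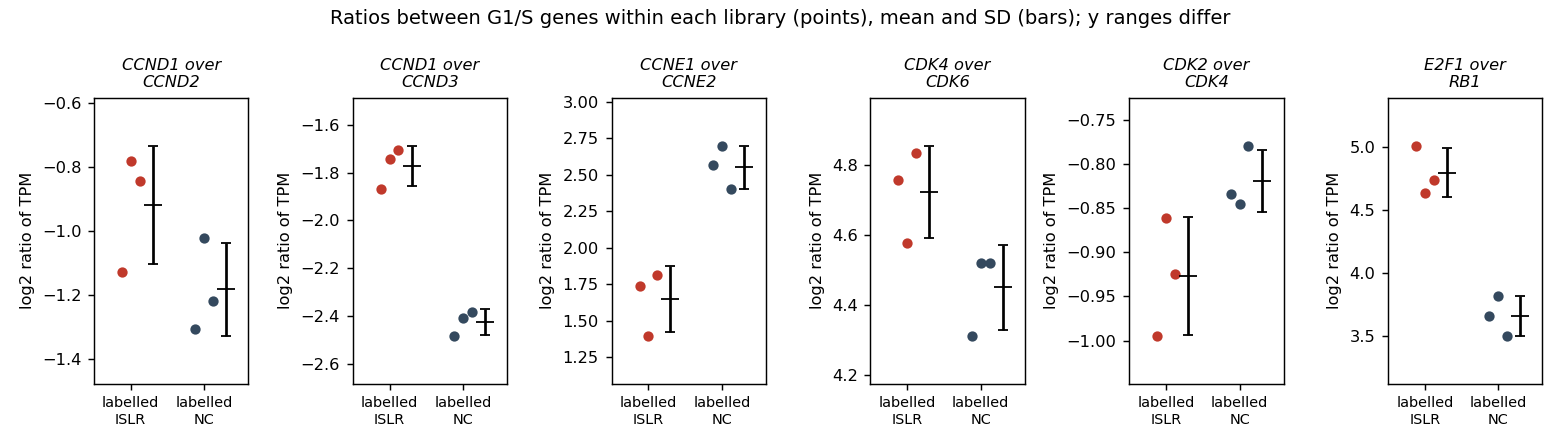
Log2 ratio of TPM between pairs of G1/S genes in each library labelled ISLR (red, left) and NC (dark, right), with the mean and SD as a bar; each panel has its own vertical range. The groups are apart in 5 of the 6 panels, most widely for E2F1 over RB1 (difference 1.14), and overlap for CCND1 over CCND2. How often ratios between any tested genes lie apart was not computed.

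The authors' deposited table gave adjusted p-values under 0.05 for 8 of the 10 genes, where 51.2% of the genes tested here had one. Its own significance mark read no for all 10, so these counts rest on the threshold of 0.05 alone. By the mean TPM, 4 of these were higher (CCND1, CDK2, CDK4 and E2F1), as were 32.9% of all tested genes, and 4 lower (CCND3, CCNE1, CDK6 and RB1), as were 18.3%. CCND2 and CCNE2 had adjusted p-values of 0.819 and 0.364 in the authors' deposited table. That table gives no fold for its test, so the direction behind its adjusted p-values is not known. With directions read from the scaled log2 fold instead, CDK2 turned (-0.10) and the authors' deposited table had 3 genes higher and 5 lower, where 23.2% and 28.0% of all tested genes were.

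Genes with a pattern most like E2F1, the member with the smallest p, were searched by Euclidean distance of centred log2(TPM + 1) over the 6 libraries among 13859 other tested genes. MUL1, a mitochondrial ubiquitin ligase, was the nearest (distance 0.042), at 14.67, 15.04 and 14.32 TPM in the ISLR-labelled libraries and 8.58, 8.47 and 8.83 TPM in the NC-labelled ones. AL117339.5 (0.071) followed. The distance takes in both groups, so genes with a like difference between them come first.

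CDK inhibitors hold the cyclin-dependent kinases inactive, and their 7 genes went both ways. On the deposited scale 3 rose and 2 fell, where 38.5% and 7.38% of all tested genes did. After scaling 3 rose and 3 fell, where 18.2% and 20.4% did. The median log2 fold of the list was -0.13, against 0.22 for all tested genes. CDKN1B, which encodes p27, an inhibitor of cyclin E with CDK2, stood at 7.26, 8.19 and 7.54 TPM in the ISLR-labelled libraries and at 3.88, 3.93 and 3.57 TPM in the NC-labelled ones (relative log2 fold 0.64, limma adjusted p = 0.000574). The values did not overlap, and the mean TPM was 2.02 times that of the NC-labelled libraries. CDKN1A, which encodes p21, averaged 148.4 ± 1.95 TPM and 114.7 ± 1.15 TPM (relative log2 fold 0.15, limma adjusted p = 0.000247), and CDKN2B, which encodes p15, an inhibitor of CDK4 and CDK6, 8.17 ± 1.96 TPM and 4.56 ± 0.165 TPM (relative log2 fold 0.48, limma adjusted p = 0.0106), in the ISLR-labelled libraries and the NC-labelled ones (SD, n = 3 each). CDKN1C, which encodes p57, fell to 2.91 ± 0.696 TPM in the ISLR-labelled libraries, against 5.32 ± 0.836 TPM in the NC-labelled ones (relative log2 fold -0.92, limma adjusted p = 0.0128). CDKN2A, named after its values were seen because it was the other gene that fell, stood at 535.8 ± 30.1 TPM and 600.5 ± 13.9 TPM (relative log2 fold -0.38, limma adjusted p = 0.0184). Its row cannot separate the transcripts of p16 and ARF. CDKN2A lost its call after quantile normalization (limma adjusted p = 0.119), with the expression trend removed (0.0796), in plain limma (0.0805) and without labelled NC 2 (0.0592). CDKN2B lost its call after quantile normalization (limma adjusted p = 0.0792) and with the length or expression trend removed (0.0602 and 0.0845). CDKN1A had an adjusted p of 0.126 in the authors' deposited table, and after scaling its log2 fold was 0.12 (limma adjusted p = 0.0285).

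The other E2F, DP, pocket protein and MuvB genes bind E2F sites or assemble the repressor complexes of quiescent cells. Of 16, 11 rose and none fell as deposited, where 38.5% and 7.38% of all tested genes did. Without labelled ISLR 2 or labelled ISLR 3, 7 rose, and the share of all tested genes in those fits was not computed. After scaling 5 rose and none fell, where 18.2% and 20.4% did. After quantile normalization 4 rose and none fell, where 17.7% and 15.2% did. With the length trend removed 3 rose and none fell, where 16.4% and 20.3% did. With the expression trend removed 4 rose and none fell, where 17.2% and 15.8% did. The list had a median log2 fold of 0.32 against 0.22 for all tested genes. E2F8, an atypical repressor E2F that is itself induced at G1/S, stood at 5.43, 5.47 and 6.05 TPM in the ISLR-labelled libraries and at 1.86, 2.77 and 1.45 TPM in the NC-labelled ones (relative log2 fold 0.94, limma adjusted p = 0.00171). The lowest library labelled ISLR stood far above the highest labelled NC. RBL2, which encodes the RB relative p130, averaged 19.6 ± 1.82 TPM and 12.5 ± 0.666 TPM (relative log2 fold 0.39, limma adjusted p = 0.00160). The MuvB subunits LIN37 (relative log2 fold 0.67, limma adjusted p = 0.00326) and RBBP4 (0.19, limma adjusted p = 0.000387) rose as well. RBBP4 had an adjusted p of 0.0875 in the authors' deposited table. Its log2 fold was 0.16 after scaling (limma adjusted p = 0.0164) and 0.075, uncalled, with the length trend removed (limma adjusted p = 0.181). RBL1, which encodes the third pocket protein p107, stood at 8.30 ± 1.09 TPM in the ISLR-labelled libraries and 8.31 ± 0.852 TPM in the NC-labelled ones (limma adjusted p = 0.981), and was named after its values were seen.

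Regulators of the cyclins and kinases were split. Of 12, 5 rose and 1 fell as deposited, where 38.5% and 7.38% of all tested genes did. Without labelled ISLR 2 or labelled ISLR 3, 3 rose, and the share of all tested genes in those fits was not computed. After scaling 3 rose and 4 fell, where 18.2% and 20.4% did. The list had a median log2 fold of 0.07 against 0.22 for all tested genes. WEE1, a kinase that inhibits CDK1 and CDK2, stood at 38.95, 41.90 and 42.87 TPM in the ISLR-labelled libraries and at 22.07, 20.28 and 25.79 TPM in the NC-labelled ones (relative log2 fold 0.62, limma adjusted p = 0.000578). CDC25A, the phosphatase that removes this inhibition, averaged 79.9 ± 1.19 TPM and 61.6 ± 2.34 TPM (relative log2 fold 0.15, limma adjusted p = 0.000708). Both the inhibitor and its antagonist thus rose. CDC25A had an adjusted p of 0.647 in the authors' deposited table. Its log2 fold was 0.13 after scaling (limma adjusted p = 0.0375) and 0.074, uncalled, with the length trend removed (limma adjusted p = 0.169). CUL1, the scaffold of the SCF ubiquitin ligases that degrade cyclin E and p27, rose (relative log2 fold 0.31, limma adjusted p = 0.00107). CKS1B, a small CDK-binding protein that SCF needs to recognize p27, was the gene that fell, to 660.0 ± 14.0 TPM in the ISLR-labelled libraries, against 806.1 ± 2.24 TPM in the NC-labelled ones (SD, n = 3 each; relative log2 fold -0.51, limma adjusted p = 0.000245). SKP1 and SKP2, which belong to the same ligase as CUL1, and CDC37, a chaperone partner of kinases, were also lower after scaling and were named after their values were seen. SKP1 and SKP2 had scaled log2 folds of -0.29 each (limma adjusted p = 0.000732 and 0.000654), whereas as deposited neither passed (limma adjusted p = 0.292 and 0.358). SKP1, SKP2 and CDC37 were also lower with the length trend removed. After quantile normalization and with the expression trend removed, SKP2 stayed lower (limma adjusted p = 0.0145 and 0.0171), but SKP1 did not pass (0.305 and 0.427). CDC37 was uncalled in both of those fits, with a log2 fold of 0.003 in the latter (limma adjusted p = 0.959).

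Classical E2F target genes of DNA replication mostly rose on the deposited scale but went both ways after scaling, and this group shares members with the wider set of S-phase genes. Of 19, 13 rose and none fell as deposited, where 38.5% and 7.38% of all tested genes did. After scaling 8 rose and 4 fell, where 18.2% and 20.4% did, so the share that fell was near that of all genes. The list had a median log2 fold of 0.35 against 0.22 for all tested genes. MCM3, a subunit of the replicative helicase, stood at 273.41, 281.45 and 287.92 TPM in the ISLR-labelled libraries and at 158.06, 162.11 and 158.80 TPM in the NC-labelled ones (relative log2 fold 0.59, limma adjusted p = 2.01e-05). The libraries of each group lay close together and far from the other group. CDC6, which loads that helicase, averaged 102.4 ± 2.32 TPM and 67.6 ± 2.50 TPM (relative log2 fold 0.37, limma adjusted p = 0.000152). The helicase subunit MCM6 (relative log2 fold 0.43, limma adjusted p = 8.61e-05) and the sliding clamp PCNA (0.18, limma adjusted p = 0.000131) rose as well. PCNA had an adjusted p of 0.114 in the authors' deposited table, and after scaling its log2 fold was 0.15 (limma adjusted p = 0.00942). The 4 genes lower after scaling, named after their values were seen, were CCNA2, CDT1, RRM2 and MYBL2, with scaled log2 folds of -0.36, -0.24, -0.24 and -0.23. CDT1, RRM2 and MYBL2 had log2 folds of 0.007, 0.005 and 0.022 as deposited. They were uncalled there, after quantile normalization and with the expression trend removed. In the last 2 fits 11 of the list rose and 1, CCNA2, fell. Of all tested genes, 17.7% and 17.2% rose there and 15.2% and 15.8% fell. With the length trend removed, 7 of the list rose and the same 4 fell, where 16.4% and 20.3% of all tested genes did. CDT1, RRM2 and MYBL2 had limma adjusted p = 0.00601, 0.0109 and 0.00700 in that fit. In the authors' deposited table their adjusted p-values were 2.5e-14, 1.2e-21 and 8.2e-13, with no direction given. The list was thus not uniform: CCNA2, the cyclin that follows cyclin E on CDK2, stood at 58.7 ± 2.43 TPM and 63.9 ± 3.28 TPM, as deposited not past the threshold (limma adjusted p = 0.113). RefSeq windows were given for 16 of the 19 genes, and 7 of these held a match to the E2F-type motif above; whether each lies at the gene start was not checked.

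**Figure D4:**
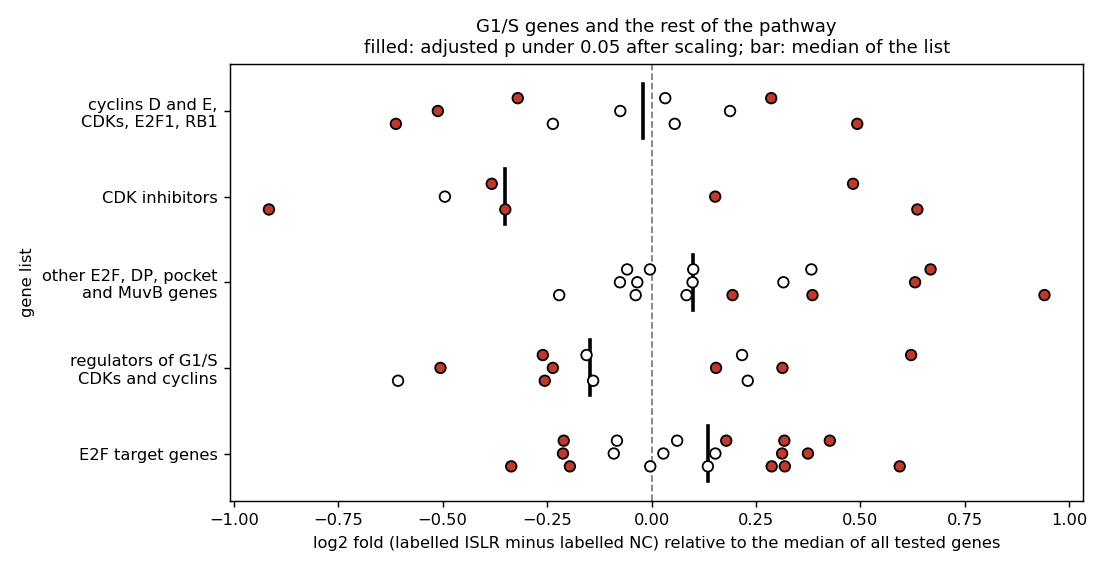
Log2 fold of each gene of the G1/S set and of the 4 other lists, relative to the median of all tested genes (dashed line at 0); points are genes, filled where they passed after median-of-ratios scaling, and the bar is the median of the list. Filled genes lie on both sides of 0 in the cyclins and kinases, the CDK inhibitors and the regulators, whereas among the other E2F, DP, pocket and MuvB genes the 5 filled ones all lie above 0.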

How the data were processed

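Messenger RNA of 6 libraries was measured by RNA-seq, 3 labelled ISLR and 3 labelled NC, grouped by title. The authors deposited TPM per gene and library, their mean TPM per group, and the p-values of a comparison for which the table's name gives DESeq2; no source used here tells its settings. HISAT2, Cufflinks, RSEM and GRCh38.p10 are named without role, per the submitters' processing notes. TPM sums to 984557 to 987784 in each library, so depth is unknown and no counting interval can be given.

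Here, genes that reached 1 TPM in 3 or more libraries were fitted in limma 3.58.1 (R 4.3.3; log2(TPM + 1), group only, trend and robust, two-sided). The fit was tested on simulated data without a shift of all genes, so that test does not cover the median shift seen here. Positions are from GENCODE release 29 and promoter sequences from RefSeq; ratios used SciPy 1.17.1. Alternatives were scaling, quantile normalization, pseudocounts of 0.1 and 5, 2 other filters, plain limma, a replicate block, each library left out, and the authors' adjusted p under 0.05. Removal of the trend with length or expression (lowess, span 0.3) after scaling was added after seeing the data. The members, lists and motif were chosen with earlier results of these data known. Genes named are the members, ISLR, up to 4 genes of each of 4 lists with the smallest p, and 3 nearest to the member with the smallest p, of which 1 is not reported here, besides marker genes and an overlapping antisense gene; others are marked.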

Additional observations from a re-analysis of the deposited data

How the results depend on the processing

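Of the 10 G1/S genes, 7 were called as deposited, 6 higher and 1 lower. The higher and lower counts were 2 and 3 after median-of-ratios scaling, 2 and 4 after quantile normalization, 1 and 4 when the length trend was removed after scaling, 2 and 4 when the expression trend was removed instead (the last 2 chosen after seeing the data), and 4 and 4 in the authors' deposited table by the direction of mean TPM (3 and 5 by that of the scaled fold, a reading chosen after seeing the data). Of the 54 genes in the 4 other lists, 32 were higher and 3 lower as deposited (38.5% and 7.38% of all tested genes). These counts were 19 and 11 after scaling (18.2% and 20.4%), 20 and 5 after quantile normalization (17.7% and 15.2%), 14 and 11 with the length trend removed (16.4% and 20.3%), 20 and 5 with the expression trend removed (17.2% and 15.8%), and 27 and 9 in the authors' deposited table by mean TPM (32.9% and 18.3%). Directions of the scaled fold, a reading chosen after seeing the data, changed the authors' counts (23.2% and 28.0% of all tested genes). They were then 2 and 3 for CDK inhibitors, and 6 and 3 for other E2F, DP, pocket and MuvB genes. For regulators they were 2 and 6, and for E2F target genes 7 and 7. Leaving out 1 library at a time gave 4 to 5 G1/S genes called (3 to 4 higher, 1 lower), the lowest without labelled NC 2, and 28 to 33 genes in the other lists (25 to 30 higher, 2 to 4 lower). The share of all tested genes called in those fits was not computed, so the lower counts cannot be read as a trait of these genes. E2F1 and CCNE1 kept their calls in every setting of this paragraph, although the authors' own significance mark read no for both.

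Directions turned for CCND2 with the length trend removed (log2 fold -0.060), for CDK2 after scaling (-0.10) and with the length trend removed (-0.093), and for CDK6 without labelled ISLR 3 (0.010) or labelled NC 1 (0.056; -0.064 to 0.056 over single libraries left out), none of them called there; the cause was not tested. With a replicate block 5 G1/S genes were called, 4 higher and 1 lower, and CCNE2 and CDK2 lost their calls (limma adjusted p = 0.0941 and 0.0530). The share of all tested genes called with the block was not computed. The numbers showed little sign of pairing: deviations of same-numbered libraries correlated at 0.020, 0.047 and -0.056. Libraries with unlike numbers were not compared in this way. Without single libraries, the log2 differences of the within-library ratios were 0.19 to 0.37 for CCND1 over CCND2, 0.62 to 0.70 for CCND1 over CCND3, -0.99 to -0.77 for CCNE1 over CCNE2, -0.14 to -0.07 for CDK2 over CDK4, 0.20 to 0.35 for CDK4 over CDK6 and 1.03 to 1.22 for E2F1 over RB1. Counting error is unknown, since TPM keeps no depth, which limits RB1 and CCNE2 most as the lowest of the 10.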

Other observations

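Single libraries stood apart for 2 genes near the switch, named after their values were seen. CDKN2C, which encodes the CDK4 and CDK6 inhibitor p18, was at 26.71, 27.10 and 27.22 TPM in the ISLR-labelled libraries, and at 53.07, 26.03 and 25.78 TPM in the NC-labelled ones. The first library labelled NC alone sets its higher mean there. CDK7, the kinase that activates other cyclin-dependent kinases, was at 2.74, 9.60 and 2.59 TPM in the ISLR-labelled libraries and at 7.57, 6.83 and 3.77 TPM in the NC-labelled ones. Neither gene passed the threshold (limma adjusted p = 0.463 and 0.543). Without labelled ISLR 2, CDK7 was called lower (log2 fold -0.90, limma adjusted p = 0.0372).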
